A study of Mus musculus with 4 samples.

Results

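The genes described here are 47 genes of Toll-like receptor (TLR), interleukin-1 (IL-1), tumor necrosis factor (TNF) and NF-kB signaling, out of 22609 gene symbols counted in the mouse hippocampus. They were chosen by symbol from a list of the pathway, with earlier results of these data known. They were divided into 6 roles, comprising 6 cytokines, 9 receptors, 18 adaptors and kinases, 5 NF-kB subunits, 7 IkB family and feedback genes, and 2 inflammasome genes. Of the 47 genes, 44 passed the filter on low counts and were tested. Tnf, Il6 and Il1rn did not pass and are given as counts.

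RNA-Seq covered 2 FLOX+GCI and 2 FBN-ARO-KO+GCI libraries of hippocampus, to ask which transcripts differ when forebrain neurons cannot make estrogen after global cerebral ischemia (GCI). All mice were female, 3 to 5 months old, had their ovaries removed 1 week before surgery, and underwent 20 min of occlusion of both common carotid arteries and 24 h of reperfusion. In FBN-ARO-KO mice the aromatase gene Cyp19a1 is deleted by a Cre recombinase under the CaMKIIα promoter, which is active in forebrain excitatory neurons, so other cells keep the gene. FLOX mice are the controls, whose Cre status is not spelled out in the sources used here, and the strain background is not given either. No sham-operated library was analysed here, so the values do not show what ischemia itself does to these genes. Nothing says whether each library is a different mouse, so p-values measure only the spread between these libraries.

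TLRs recognize microbial products and molecules released by damaged cells, and share with the IL-1 receptor the adaptor MyD88, which recruits IRAK kinases and TRAF6. TNF acts through its own receptors and RIPK1, TRAF2 and the ubiquitin ligases cIAP1 and cIAP2. Both routes reach the IkB kinases, which mark IkB proteins for destruction and so free NF-kB dimers to enter the nucleus. NF-kB then induces cytokines as well as its own inhibitors, IkBα and A20, which end the response. In brain, microglia hold most of the TLRs and make most of the TNF and IL-1β after injury, while endothelial cells are a main site of the IL-1 receptor.

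The DNA element that NF-kB dimers bind is shown first, because it marks the members that are themselves candidates for NF-kB control. The NF-kB consensus decamer was searched on both strands in the 250 bases before each RefSeq transcription start (build GRCm38.p6). A start was listed for 38 of the 47 members, and 14 of these 38 (36.8%) held a match, against 4.46% of 27025 genes. A match is a description of the letters and not a binding site, and a missing match says nothing about the factor. The windows below, from 1 site in each of 9 members of 5 roles, are written along the strand of the gene with the matched bases in capitals. Where matches overlap, they are merged. Coordinates of these windows are in GRCm38.p6 and cannot be set beside the mm9 positions given for genes further on.
Il6 at chr5:30013060-30013089, plus strand: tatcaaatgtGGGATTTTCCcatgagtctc
Tlr2 at chr3:83841762-83841790, minus strand: aggacacctGGGGAATTCCCacacggagc
Il1r1 at chr1:40266344-40266373, plus strand: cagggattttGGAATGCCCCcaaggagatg
Tank at chr2:61593015-61593044, plus strand: ctttgtgggcGGGGCTTTCCtgcagaggcg
Nfkb2 at chr19:46304689-46304717, plus strand: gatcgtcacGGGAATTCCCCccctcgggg
Rel at chr11:23771042-23771070, minus strand: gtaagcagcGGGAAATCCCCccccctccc
Nfkbie at chr17:45555584-45555613, plus strand: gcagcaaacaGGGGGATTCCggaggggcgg
Tnfaip3 at chr10:19015411-19015432, minus strand: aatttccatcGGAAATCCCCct
Tnip1 at chr11:54962978-54963007, minus strand: tccatcatgGGGGAATTCCCCtcctgcctc

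Nfkbia encodes IkBα, the inhibitor that NF-kB induces first, and its whole window is shown because this feedback is the textbook readout of the pathway. It lies at chr12:55492648-55492897 of GRCm38.p6 on the minus strand, and the match in capitals ends 20 bases before the start.
Nfkbia: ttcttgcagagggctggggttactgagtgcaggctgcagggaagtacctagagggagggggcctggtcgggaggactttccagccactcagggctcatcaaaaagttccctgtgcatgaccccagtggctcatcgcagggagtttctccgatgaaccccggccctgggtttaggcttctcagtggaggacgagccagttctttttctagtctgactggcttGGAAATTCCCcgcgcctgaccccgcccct
The 13 tested members with a match had a median log2 fold change of -0.07 between genotypes, and the 22 tested members with a listed start and no match had a median of -0.09. Whether the decamer was present therefore made little difference to the median, in a comparison that was described and not tested.

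Cyp19a1 itself had 4 counts in the first and 1 in the second FLOX+GCI library and 2 in each FBN-ARO-KO+GCI library, too few to check the deletion. Counts on genes totaled between 24333396 and 33076795 per library, and 3 counts, below which a gene was taken as not detected, corresponded to between 0.0905 and 0.122 CPM, which covers counting error only. CPM are counts scaled to the size of the library, after adjustment by TMM, a factor for library composition. FLOX+GCI replicate 2 stood apart, since 11 tested genes were at least 4-fold higher there than in each other library, against 2 genes in FLOX+GCI replicate 1 and 0 in either FBN-ARO-KO+GCI library. The 5 hippocampal neuron markers (Prox1, Wfs1, Fibcd1, Grik4 and Neurod6) summed to between 787 and 821 CPM in every library. Markers of monocytes and lymphocytes were near 0, as the 5 monocyte markers found summed to between 0.392 and 0.718 CPM and the 6 lymphocyte markers to between 0.205 and 0.446 CPM. The 9 neutrophil markers found summed to between 5.11 and 6.21 CPM, and Csf3r was the only one of them to pass the filter. The highest counts among the others were 16 for S100a8 and 15 for S100a9, both in FBN-ARO-KO+GCI replicate 2, and Elane had 0 counts in every library. Levels in bulk tissue do not tell fewer cells of a type from less RNA per cell.

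By median level the adaptors and kinases were highest and the cytokines lowest. Levels were compared between genes as CPM per kb of the longest protein-coding transcript, averaged over the 4 libraries. Il18, a cytokine that is made as an inactive precursor and stored, had the highest level at 25.7 CPM per kb. It was followed by Nfkbia at 18.3, Traf3 at 15.5, Irak1 at 14.6 and Birc2, which encodes cIAP1, at 12.4 CPM per kb. The spread of Traf3 and Irak1 over libraries overlapped, so their order is not fixed. The lowest levels belonged to Tnf at 0.0918, Il6 at 0.0496 and Il1rn at 0.0205 CPM per kb. By role, the median level was 4.28 CPM per kb for the 18 adaptors and kinases, 2.90 for the 5 NF-kB subunits, 2.40 for the 7 IkB family and feedback genes, 1.71 for the 9 receptors, 0.966 for the 2 inflammasome genes and 0.241 for the 6 cytokines. The microglial receptors Tlr2 and Tlr4 were low, at 0.674 and 0.452 CPM per kb, and Tlr3, which senses double-stranded RNA, was higher at 3.62 CPM per kb.

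**Figure D1:**
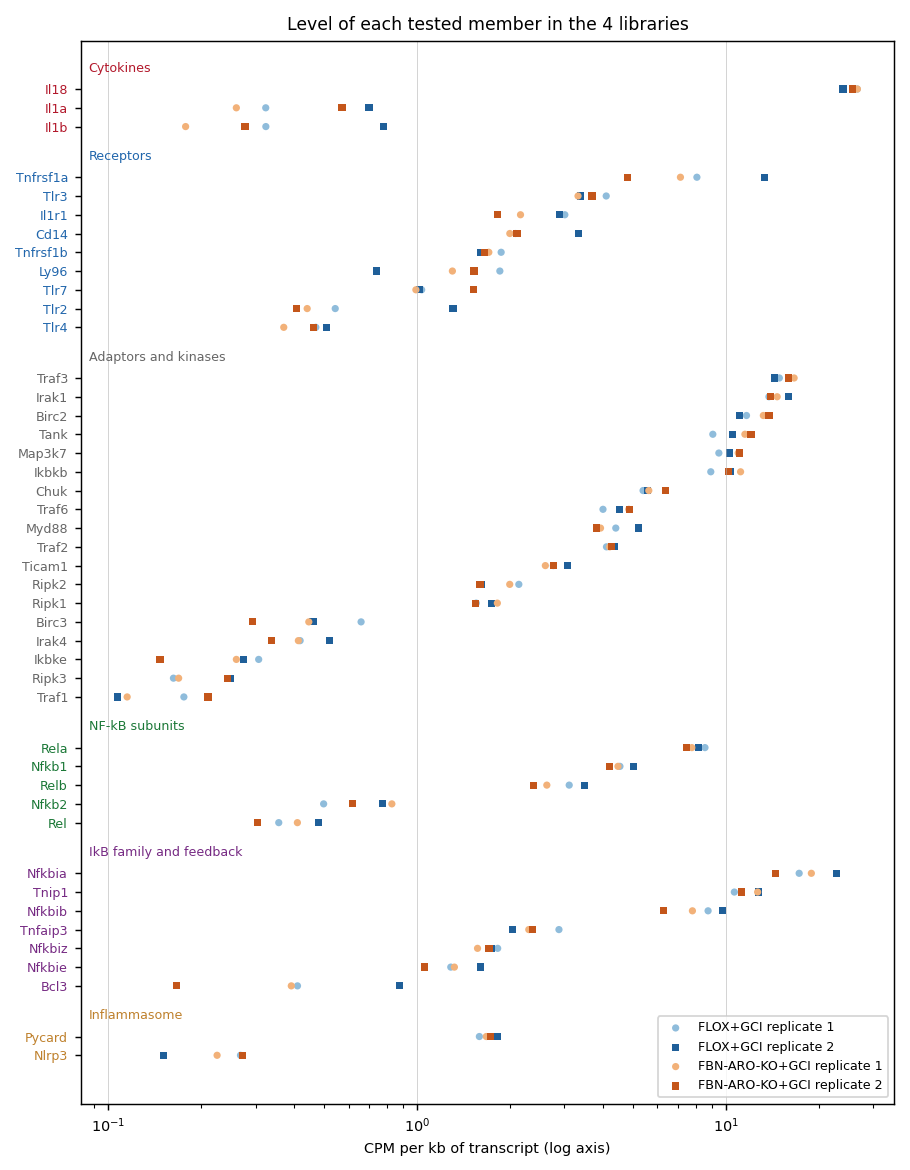
Level of each of the 44 tested members, as CPM per kb of transcript on a log axis, with 1 point for each of the 4 libraries and genes ordered by mean level within each role. Il18, Nfkbia and Traf3 lie at the right, and for Tlr2, Bcl3 and Il1b the FLOX+GCI replicate 2 point lies to the right of the other libraries.

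No member differed between genotypes past an adjusted p of 0.05. Genotypes were compared over all 14527 genes that passed the filter with edgeR's quasi-likelihood test and Benjamini-Hochberg adjustment, in which 2 genes (0.0138%) passed. The number of members past 0.05 was 0 of 44, and it was also 0 with edgeR's likelihood ratio test, which called 2.02% of all genes, and with DESeq2, which gave an adjusted p to 5 members only and called 5.1% of the genes that had one. At an unadjusted p under 0.05 there were 7 members (15.9%), against 16.5% of all tested genes. Of these, 5 were lower in FBN-ARO-KO+GCI, where the share of all genes was 7.82%, and 2 were higher, where it was 8.72%. The 5 lower genes were Il1r1, Tnfrsf1a, Nfkbib, Tlr2 and Relb, and the 2 higher were Birc2 and Tank. By direction these were 11.4% of the members for lower and 4.55% for higher. Over the 44 members, 28 had a negative and 16 a positive log2 fold change, with a median of -0.08 against -0.01 for all tested genes. Groups were fully separate for 21 of the 44 members (47.7%), which held for 51.8% of all tested genes. Of the 21, 15 were lower (25.8% of all genes) and 6 higher (25.9%).

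**Figure D2:**
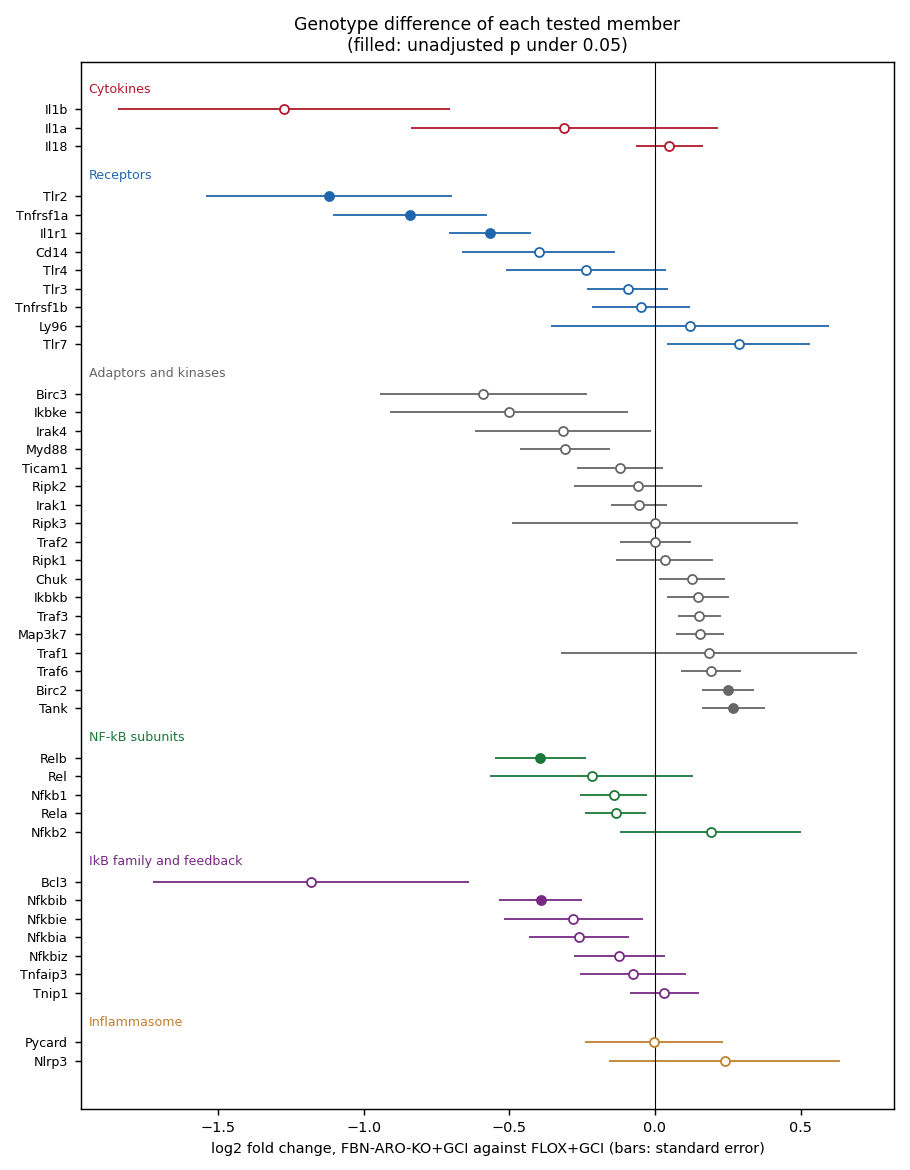
Log2 fold change of each tested member between FBN-ARO-KO+GCI and FLOX+GCI, with bars for the standard error (SE) and filled points for an unadjusted p under 0.05. Values run from -1.27 for Il1b to 0.29 for Tlr7, and the filled points are 3 receptors, 2 adaptors, 1 subunit and 1 IkB gene.

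Of the 6 cytokines, Tnf, Il6 and Il1rn had too few counts to be tested, Il1a and Il1b were tested at low counts, and Il18 was abundant. Tnf, the founding ligand of its family, had 14 counts in FLOX+GCI replicate 2, 1 count in FBN-ARO-KO+GCI replicate 2 and 0 in the other libraries. All but 1 of its counts therefore came from FLOX+GCI replicate 2, and the other FLOX+GCI library, at 0, did not stand above the FBN-ARO-KO+GCI libraries. Il1rn, which encodes the natural antagonist of the IL-1 receptor, had 5 counts in FLOX+GCI replicate 2 and 0 in the other 3 libraries. Il6 had between 1 and 2 counts in each of the 4 libraries, under that limit of 3 counts. Il1b, for IL-1β, was covered by 11 and 26 reads (FLOX+GCI) against 8 and 11 (FBN-ARO-KO+GCI), or 0.439 and 1.05 CPM against 0.241 and 0.376 CPM. The groups did not overlap, but its log2 fold change of -1.27 (SE 0.57) did not pass, with an adjusted p of 0.316 in edgeR's quasi-likelihood test, and it was -0.52 without FLOX+GCI replicate 2. Il1a, for IL-1α, had 0.639 and 1.38 CPM in FLOX+GCI and 0.513 and 1.13 CPM in FBN-ARO-KO+GCI, so that the second library of each group was the higher one and the groups overlapped. Its log2 fold change of -0.31 turned to 0.34 without FLOX+GCI replicate 2. Il18 had 18.7 and 16.8 CPM in FLOX+GCI and 18.7 and 18.0 CPM in FBN-ARO-KO+GCI, which gave a log2 fold change of 0.05 (SE 0.12).

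Receptors held the lowest unadjusted p-values of the members. Il1r1, on chromosome 1 of mm9 from 40281925 to 40373043, encodes the receptor that both IL-1α and IL-1β bind. Il1r1 had 14.5 and 14.0 CPM in FLOX+GCI and 10.4 and 8.77 CPM in FBN-ARO-KO+GCI. Both FBN-ARO-KO+GCI libraries lay below both FLOX+GCI libraries, and the 2 FLOX+GCI libraries were close to each other. The FLOX+GCI mean was 14.2 ± 0.404 CPM and the FBN-ARO-KO+GCI mean 9.61 ± 1.18 CPM (SD, n = 2 each), which gave a log2 fold change of -0.57 (SE 0.14). This had an unadjusted p of 0.00463 and an adjusted p of 0.238 in edgeR's quasi-likelihood test. Il1r1 was the only member that stayed under an unadjusted 0.05 in each of the 13 alternative fits, with a log2 fold change between -0.70 and -0.45 when 1 library was left out. Endothelial markers stood beside it, as all 6 (Pecam1, Cldn5, Flt1, Tek, Kdr and Ly6c1) had a negative log2 fold change and none an unadjusted p under 0.05 with all 4 libraries. Without FLOX+GCI replicate 2, 5 of the 6 were lower at an unadjusted p under 0.05, without FBN-ARO-KO+GCI replicate 1 it was 2 of 6, and without FLOX+GCI replicate 1 it was 0, with 3 of the 6 negative. Their summed level was 210 and 155 CPM in FLOX+GCI and 174 and 128 CPM in FBN-ARO-KO+GCI, with the groups overlapping. The part of endothelial RNA in the difference of Il1r1 was not tested.

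Tnfrsf1a, on chromosome 6 from 125299380 to 125312502, encodes TNF receptor 1, the receptor that most cells use for soluble TNF. It had 17.4 and 28.8 CPM in FLOX+GCI and 15.4 and 10.3 CPM in FBN-ARO-KO+GCI. The groups did not overlap, and FLOX+GCI replicate 2 was 1.66 times FLOX+GCI replicate 1. Tnfrsf1a had a log2 fold change of -0.84 (SE 0.27, adjusted p = 0.248 in edgeR's quasi-likelihood test). It was -0.43 without FLOX+GCI replicate 2 and -0.58 without FBN-ARO-KO+GCI replicate 2. Without replicate 1 of either group it was -1.16.

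Tlr2, on chromosome 3 from 83640195 to 83645689, encodes the receptor for bacterial lipoproteins, and its promoter window above held a pair of overlapping matches. Tlr2 had 1.64 and 3.94 CPM in FLOX+GCI and 1.33 and 1.23 CPM in FBN-ARO-KO+GCI. FLOX+GCI replicate 2 was high, and the other 3 libraries lay within a narrow range. The log2 fold change of -1.12 (SE 0.42, adjusted p = 0.270 in edgeR's quasi-likelihood test) was -0.36 without FLOX+GCI replicate 2, with an unadjusted p of 0.395. The 8 microglial markers summed to 448 and 423 CPM in FLOX+GCI and 420 and 473 CPM in FBN-ARO-KO+GCI, with 4 of the 8 lower and none under an unadjusted p of 0.05.

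The other 6 receptors had log2 fold changes between -0.40 and 0.29 and adjusted p-values of at least 0.455. Cd14, the co-receptor that hands lipopolysaccharide to TLR4, had 3.27 and 5.23 CPM in FLOX+GCI and 3.14 and 3.31 CPM in FBN-ARO-KO+GCI, so FLOX+GCI replicate 2 alone was high. The log2 fold change was -0.40 with all libraries and -0.03 without FLOX+GCI replicate 2. Ly96, for the TLR4 partner MD-2, went the other way within FLOX+GCI, with 1.12 and 0.446 CPM, and had 0.784 and 0.922 CPM in FBN-ARO-KO+GCI. Tlr4, the lipopolysaccharide receptor, had 1.92 and 2.07 CPM in FLOX+GCI and 1.51 and 1.88 CPM in FBN-ARO-KO+GCI, which gave a log2 fold change of -0.24 (SE 0.27). The groups of Tlr4 did not overlap, but the difference was smaller than its SE. Tnfrsf1b, for TNF receptor 2, had a log2 fold change of -0.05 (SE 0.17). Tlr7, which senses single-stranded RNA, had 5.94 CPM in FBN-ARO-KO+GCI replicate 2 and between 3.86 and 4.03 CPM in the other libraries. For Tlr3, the log2 fold change of -0.09 became -0.33 after correcting for GC content and transcript length, with an unadjusted p of 0.0234 and an adjusted p of 0.458 in edgeR's quasi-likelihood test.

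**Figure D3:**
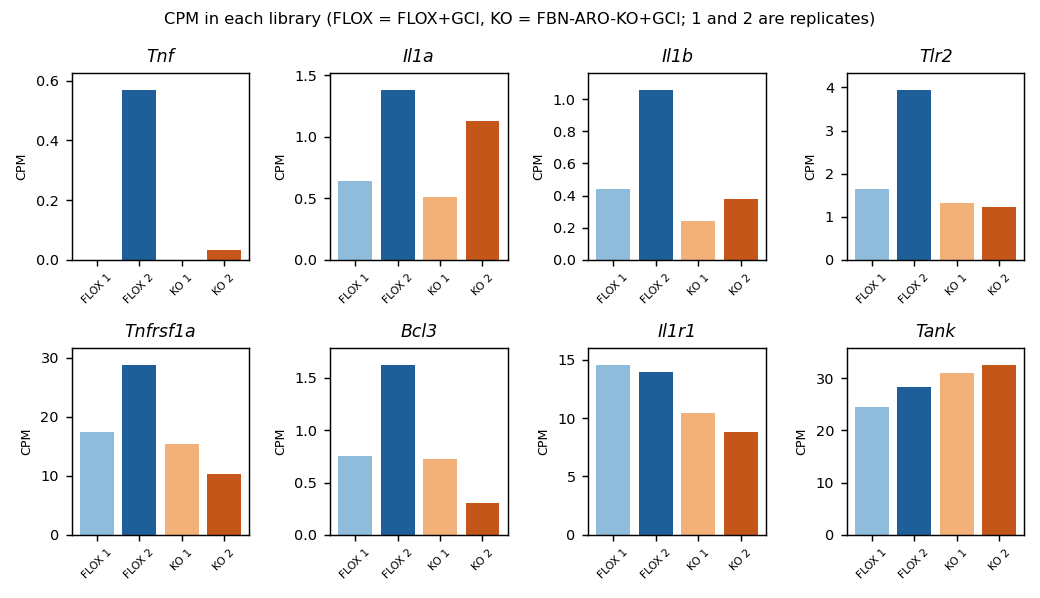
CPM of 8 members in each library as bars that start at 0, with FLOX+GCI in blue and FBN-ARO-KO+GCI in orange. FLOX+GCI replicate 2 is the highest library for Tnf, Il1a, Il1b, Tlr2, Tnfrsf1a and Bcl3, while the groups separate without it standing apart for Il1r1 and Tank.

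Adaptors and kinases were split in direction, with 8 of the 18 lower and 10 higher in FBN-ARO-KO+GCI and a median log2 fold change of 0.02. Both members under an unadjusted p of 0.05 were higher. Tank, on chromosome 2 from 61416642 to 61492228, encodes a TRAF-binding scaffold of the kinases TBK1 and IKKε. It had 24.5 and 28.3 CPM in FLOX+GCI and 31.1 and 32.5 CPM in FBN-ARO-KO+GCI, so the groups did not overlap. This was a log2 fold change of 0.27 (SE 0.11, adjusted p = 0.283 in edgeR's quasi-likelihood test). Birc2, on chromosome 9 from 7818236 to 7835255, encodes the ubiquitin ligase cIAP1 of the TNF receptor complex and had 36.5 and 34.6 CPM in FLOX+GCI and 41.4 and 43.2 CPM in FBN-ARO-KO+GCI. The groups were again separate, with a log2 fold change of 0.25 (SE 0.09, adjusted p = 0.255 from the same edgeR test). Both transcripts are poor in GC, at 38.4% for Tank and 42.8% for Birc2 against a median of 50.6% for all tested genes. After correcting for GC content and length the log2 fold change was 0.02 for Tank and 0.10 for Birc2, and neither kept an unadjusted p under 0.05.

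Birc3, the neighbor and relative of Birc2 that encodes cIAP2 and is itself induced by NF-kB, had the largest log2 fold change of this role at -0.59 (SE 0.35). Birc3 had 1.92 and 1.34 CPM in FLOX+GCI and 1.30 and 0.853 CPM in FBN-ARO-KO+GCI, and its adjusted p was 0.417 in edgeR's quasi-likelihood test. Myd88, the adaptor shared by most TLRs and the IL-1 receptor, had 8.62 and 10.2 CPM in FLOX+GCI and 7.69 and 7.48 CPM in FBN-ARO-KO+GCI. Its groups did not overlap, at a log2 fold change of -0.31 (SE 0.15) and an adjusted p of 0.353 from the same edgeR test. Myd88 overlaps Acaa1a on the opposite strand, and no source used here gives how HTSeq treated strand. Reads from the overlap may therefore be missing from its count or come from the other gene. The same holds for Irak4 with Twf1, Traf3 with 4930595D18Rik, Ripk1 with Serpinb6a, Nfkb2 with Psd and Nfkbib with Sirt2. Ticam1, the adaptor that TLR3 uses in place of MyD88, had a log2 fold change of -0.12 (SE 0.15).

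The core kinases of the pathway were well covered, and none had an unadjusted p under 0.05. Ikbkb and Chuk, which encode the catalytic IkB kinases IKKβ and IKKα, had log2 fold changes of 0.15 (SE 0.11) and 0.13 (SE 0.11). Map3k7, for the kinase TAK1 above them, had a log2 fold change of 0.16 (SE 0.08). Irak1 had 52.8 and 61.2 CPM in FLOX+GCI and 56.2 and 53.5 CPM in FBN-ARO-KO+GCI, which gave a log2 fold change of -0.06 (SE 0.10). Of the TRAF genes, Traf3 had a log2 fold change of 0.15 (SE 0.07) and Traf6, the ubiquitin ligase of the IL-1 and TLR route, of 0.19 (SE 0.10). Traf2, the ubiquitin ligase scaffold of the TNF route, had between 12.5 and 13.2 CPM in all libraries and a log2 fold change of 0.00 (SE 0.12). The remaining members of this role, Irak4, Traf1, Ripk1, Ripk2, Ripk3 and Ikbke, had log2 fold changes between -0.50 and 0.19, and the SE of Ripk3, Traf1 and Ikbke ran from 0.41 to 0.51.

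NF-kB subunits did not differ between genotypes past an adjusted p of 0.05, and 4 of the 5 had a negative log2 fold change, with a median of -0.14 that ran from -0.21 without FLOX+GCI replicate 1 to -0.07 without FLOX+GCI replicate 2. Rela encodes p65, the main transactivating subunit, and had 23.2 and 22.1 CPM in FLOX+GCI and 21.1 and 20.2 CPM in FBN-ARO-KO+GCI. The groups of Rela did not overlap, but its log2 fold change of -0.14 (SE 0.10) turned to 0.06 after correcting for GC content and length. Nfkb1, for the p105 precursor of p50, had 18.7 and 20.6 CPM in FLOX+GCI and 18.4 and 17.2 CPM in FBN-ARO-KO+GCI, which gave a log2 fold change of -0.14 (SE 0.12). Relb, on chromosome 7 from 20191566 to 20214787, encodes a subunit of the noncanonical pathway and was the only subunit under an unadjusted p of 0.05. Relb had 8.34 and 9.33 CPM in FLOX+GCI and 7.06 and 6.38 CPM in FBN-ARO-KO+GCI, and the groups were separate. Relb had a log2 fold change of -0.39 (SE 0.16, unadjusted p = 0.0390, adjusted p = 0.281 in edgeR's quasi-likelihood test). After the correction it was -0.28, with an unadjusted p of 0.0873 from the same test. With 1 library left out it ran from -0.47 to -0.31, and it was -0.32 without FBN-ARO-KO+GCI replicate 2. Rel and Nfkb2, whose promoter windows held matches to the decamer, had overlapping groups and log2 fold changes of -0.22 (SE 0.35) and 0.19 (SE 0.31).

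IkB family and feedback genes had a negative log2 fold change in 6 of 7 cases, with a median of -0.26 that ran from -0.45 without FBN-ARO-KO+GCI replicate 1 to -0.13 without FBN-ARO-KO+GCI replicate 2, and only Nfkbib had an unadjusted p under 0.05. Nfkbia had 27.2 and 35.9 CPM in FLOX+GCI and 29.8 and 22.8 CPM in FBN-ARO-KO+GCI. The libraries of the groups overlapped, since FBN-ARO-KO+GCI replicate 1 was above FLOX+GCI replicate 1, and the difference in means was smaller than the SD of FLOX+GCI (31.6 ± 6.14 against 26.3 ± 4.95 CPM, SD, n = 2 each). Nfkbia had a log2 fold change of -0.26 (SE 0.17, adjusted p = 0.454 in edgeR's quasi-likelihood test), and -0.05 without FLOX+GCI replicate 2. Tnfaip3, for the ubiquitin-editing enzyme A20, had 12.7 and 9.01 CPM in FLOX+GCI and 10.2 and 10.5 CPM in FBN-ARO-KO+GCI, so both FBN-ARO-KO+GCI libraries lay between the FLOX+GCI libraries. Tnip1, for the A20-binding protein ABIN-1, had 31.6 and 37.8 CPM in FLOX+GCI and 37.7 and 33.4 CPM in FBN-ARO-KO+GCI, which gave a log2 fold change of 0.03 (SE 0.12). Nfkbia, Tnfaip3 and Tnip1 each hold the decamer in their promoter windows, and none of them separated the groups. Of all 13 tested members with a match, 5 did (38.5%), against 51.8% of all tested genes.

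Nfkbib, on chromosome 7 from 29543270 to 29552531, encodes IkBβ and held no match in its window. It had 18.0 and 20.0 CPM in FLOX+GCI and 16.1 and 12.9 CPM in FBN-ARO-KO+GCI, so the groups did not overlap. The log2 fold change of Nfkbib was -0.39 (SE 0.14, unadjusted p = 0.0273, adjusted p = 0.259 in edgeR's quasi-likelihood test). Its transcript is rich in GC, at 58.8%, and after the correction its log2 fold change was -0.20 with an unadjusted p of 0.124. With 1 library left out the log2 fold change ran from -0.56 to -0.25, the latter without FBN-ARO-KO+GCI replicate 2. Bcl3, an IkB-like protein that works with p50 in the nucleus, had the largest log2 fold change of this role at -1.18 (SE 0.54), with an adjusted p of 0.324 from the same edgeR test. It was covered by 19 and 40 reads (FLOX+GCI) against 24 and 9 (FBN-ARO-KO+GCI), or 0.758 and 1.62 CPM against 0.724 and 0.307 CPM. The nearest libraries of the groups were almost level. Its log2 fold change was -0.53 without FLOX+GCI replicate 2 and -0.71 without FBN-ARO-KO+GCI replicate 2. It was -1.62 without FLOX+GCI replicate 1 and -1.94 without FBN-ARO-KO+GCI replicate 1. Nfkbie and Nfkbiz, for IkBε and the nuclear IkBζ, had log2 fold changes of -0.28 (SE 0.24) and -0.12 (SE 0.16).

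Inflammasome genes were low and overlapped between groups. Nlrp3, the sensor, had 1.08 and 0.609 CPM in FLOX+GCI and 0.905 and 1.09 CPM in FBN-ARO-KO+GCI, which gave a log2 fold change of 0.24 (SE 0.40) that turned to -0.12 without FLOX+GCI replicate 2. Pycard, for the adaptor ASC that links sensor and caspase-1, had between 2.23 and 2.56 CPM in all 4 libraries and a log2 fold change of 0.00 (SE 0.24).

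Single libraries of both groups and one property of the transcripts moved with these values. FBN-ARO-KO+GCI replicate 2 was the highest library for 8 of the 44 tested members (18.2%), against 33.75% of all tested genes. FLOX+GCI replicate 2 was the highest library for 21 of the 44 tested members (47.7%), against 29.0% of all tested genes. Without it, 1 member was lower and 1 higher at an unadjusted p under 0.05, against 7.06% and 5.86% of all genes. The lower one was Il1r1 and the higher one Tank. Where replicate 1 of FLOX+GCI was left out instead, Tnf passed the filter only through FLOX+GCI replicate 2, where it was high. Its lower value there was set by the filter and is not a result. Without FLOX+GCI replicate 1, when 45 members were tested because Tnf then passed the filter, 11 members were lower, Tnf among them, against 7.64% of all genes. In that fit Tlr2 and Tnfrsf1a passed an adjusted p of 0.05 (0.0239 and 0.00746 in edgeR's quasi-likelihood test on the 3 libraries left), as did 1.3% of all genes. Without FBN-ARO-KO+GCI replicate 2 the only member at an unadjusted p under 0.05 was Il1r1, which was lower, against 3.17% of all genes for lower and 2.47% for higher. GC content of the transcript and log2 fold change were also related, at a Spearman's rho of -0.55 across 14032 tested genes and of -0.28 across the 44 members, which are not independent replicates. After correcting for GC content and length, 4 members had an unadjusted p under 0.05, all lower (Tlr2, Tlr3, Il1r1 and Tnfrsf1a), where the background was 4.58% for lower and 5.38% for higher genes. Tank, Birc2, Relb and Nfkbib were no longer among them.

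**Figure D4:**
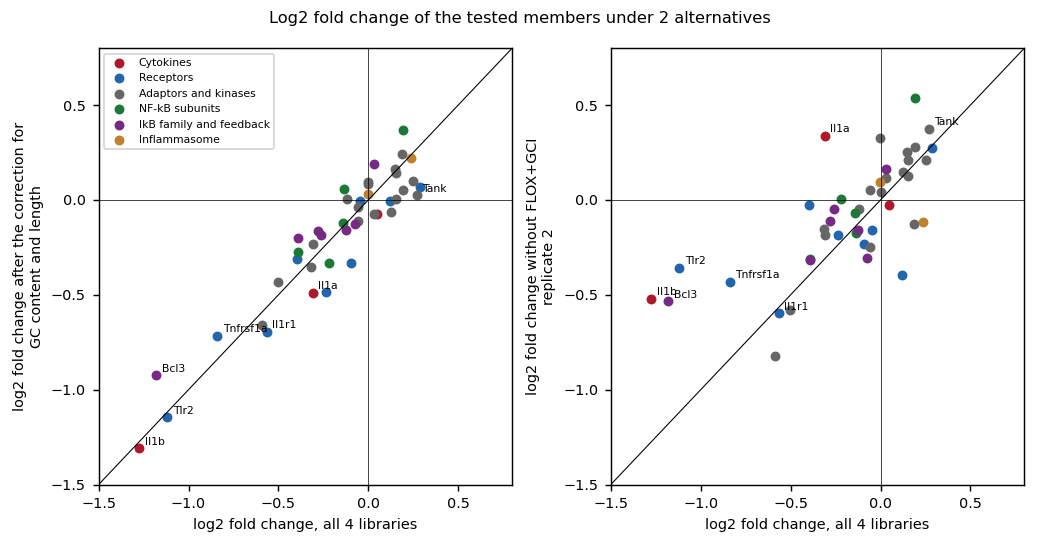
Log2 fold change of the tested members with all 4 libraries (x axis) against the value after correcting for GC content and length (left, y axis) and without FLOX+GCI replicate 2 (right, y axis), with the line of equal values. Tlr2, Il1b, Bcl3 and Tnfrsf1a lie well above the line on the right, while Il1r1 stays on it at -0.57 and -0.60.

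Other genes of the pathway, a list of 60 that are not members, gave 47 tested genes of which 0 passed an adjusted p of 0.05 with edgeR's quasi-likelihood test. DESeq2 called 3, where it called 5.1% of all genes that had an adjusted p. The likelihood ratio test called 2, where it called 2.02% of all genes. At an unadjusted p under 0.05 there were 8 (17.0%, against 16.5% of all tested genes), 4 lower and 4 higher in FBN-ARO-KO+GCI. The 5 with the smallest p were Itch, Rbck1, Otud7b, Cyld and Casp1. Itch, a ubiquitin ligase that works with A20, had 82.4 and 82.96 CPM in FLOX+GCI and 104 and 109 CPM in FBN-ARO-KO+GCI, which gave a log2 fold change of 0.36 (SE 0.07). Otud7b and Cyld, both deubiquitinases, had log2 fold changes of 0.31 (SE 0.08) and 0.33 (SE 0.10). Rbck1, for the HOIL-1 subunit of the linear ubiquitin ligase LUBAC, had 90.5 and 95.2 CPM in FLOX+GCI and 75.7 and 68.9 CPM in FBN-ARO-KO+GCI, which gave a log2 fold change of -0.36 (SE 0.08). The groups of these genes did not overlap, and their adjusted p was between 0.238 and 0.245 in edgeR's quasi-likelihood test. After correcting for GC content and length the log2 fold changes were 0.16 for Itch, 0.22 for Otud7b, 0.13 for Cyld and -0.15 for Rbck1. Casp1, the protease that cuts pro-IL-1β and pro-IL-18, had 2.47 and 2.80 CPM in FLOX+GCI and 1.27 and 1.60 CPM in FBN-ARO-KO+GCI. Casp1 had a log2 fold change of -0.88 (SE 0.27, adjusted p = 0.245 from the same edgeR test) and -1.03 after the correction.

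Textbook NF-kB target genes that are not members, a list of 23, gave 13 tested genes. The likelihood ratio test called 2 at an adjusted p under 0.05, where it called 2.02% of all genes. DESeq2 called 0 and edgeR's quasi-likelihood test 0. At an unadjusted p under 0.05 there were 8, 7 of them lower in FBN-ARO-KO+GCI, against 7.82% of all tested genes for the lower direction. The 1 higher gene was Lcn2, at a log2 fold change of 0.92. The list was written with earlier results of these data known, the values of Cxcl10, Lcn2 and Ptx3 among them, so its count is not independent evidence, with or without these 3. Without them, there were 5 of 10 tested genes, all lower, namely Icam1, Vcam1, Csf1, Ier3 and Gadd45b. The other 10 of the 23 genes had too few counts to be tested, so these counts are a description of the genes that passed. Cxcl10 and Ptx3 passed the filter only through the FLOX+GCI libraries, so their lower direction was set by the filter. At an unadjusted p under 0.05 there were 5 of 15 target genes tested without FLOX+GCI replicate 2, against 12.9% of all genes, and 4 of 15 without FBN-ARO-KO+GCI replicate 2, against 5.64%. FLOX+GCI replicate 2 was the highest library for 8 of the 13 genes (61.5%), against 29.0% of all tested genes, and all 6 endothelial markers had a negative log2 fold change. The part of that library or of endothelial RNA in the count was not tested. Icam1, the adhesion molecule that leukocytes bind on endothelium, had 4.55 and 5.88 CPM in FLOX+GCI and 3.38 and 2.18 CPM in FBN-ARO-KO+GCI. Its groups were separate, with a log2 fold change of -0.90 (SE 0.27, adjusted p = 0.245 in edgeR's quasi-likelihood test), and of -0.70 without FLOX+GCI replicate 2. Gadd45b, a stress-induced inhibitor of JNK signaling, had 14.6 and 18.0 CPM in FLOX+GCI and 11.6 and 10.6 CPM in FBN-ARO-KO+GCI, which gave a log2 fold change of -0.55 (SE 0.15, adjusted p = 0.238 from the same edgeR test). Csf1, the growth factor of microglia, had 40.5 and 43.4 CPM against 35.8 and 33.8 CPM, which gave a log2 fold change of -0.27 (SE 0.09). The chemokine Cxcl10 was covered by 10 and 26 reads (FLOX+GCI) against 2 and 3 (FBN-ARO-KO+GCI), and Ptx3, a soluble pattern recognition protein, had 11 and 189 against 7 and 10 counts, with FLOX+GCI replicate 2 the highest library for both.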

How the data were processed

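Single-end reads of 50 nt were mapped to mm9 by the authors, who deposited raw counts per gene symbol, with no normalization. Per the labels, the tools were TopHat2 2.0.8b and HTSeq, whose version and strand setting are not given in the sources used here. The 5 counters of unassigned reads, between 43.4% and 45.5% of each file's total, were left out. The study used DESeq with an adjusted p under 0.05.

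From the counts, genotypes were compared with edgeR 4.0.16 in R 4.3.3, using the quasi-likelihood test, TMM, filterByExpr (minimum count 10) and Benjamini-Hochberg adjustment over all 14527 tested genes. The SE of a log2 fold change is its size over the root of the F statistic. With 2 libraries a group, the smallest two-sided p of an exact permutation test on 1 gene is 0.333. The 2 libraries of a group were not duplicates, with a chi-square per degree of freedom of 10.5 (FLOX+GCI) and 12.3 (FBN-ARO-KO+GCI). GENCODE M1 gave gene positions, GC content and transcript length (NCBIM37, the same build as mm9), and RefSeq gave promoters (GRCm38.p6). The consensus decamer was GGG, a purine, any base, A or T, 2 pyrimidines and CC.

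The members and lists were chosen with earlier results of these data known. Members named with values per library were all those with an unadjusted p under 0.05, all below the filter, the largest log2 fold change of each role, and Tnf, Il1b, Il6, Tlr4, Myd88, Nfkb1, Rela, Nfkbia and Tnfaip3. Up to 5 genes with the smallest p were named from each other list. Further members of the 47 were named with values after those values were seen. To correct for GC content and length, splines (natural, 5 df each) were fitted per library to log2 deviations from the mean over libraries and used as an offset. The procedure was tested on simulated data. Alternatives also included DESeq2 1.42.0. Ly6g and Chil3 of the marker lists were not among the symbols. The 5 astrocyte markers summed to between 1994 and 2275 CPM and the 5 choroid plexus markers to between 42.3 and 61.3 CPM. Within them, Ttr of choroid plexus had 26.5 and 21.9 CPM in FLOX+GCI against 8.93 and 15.6 CPM (log2 fold change -0.98, unadjusted p = 0.00469 in edgeR). Aldh1l1 of astrocytes had 59.5 and 65.2 against 49.7 and 51.5 CPM (-0.30, unadjusted p = 0.00848 in edgeR). Ttr was the only lower one of the 4 tested choroid plexus markers, and Aldh1l1 the only lower one of the 5 astrocyte markers. Of the 5 erythroid markers 4 had 0 counts in every library, and Alas2 had 4.15 and 3.08 against 1.84 and 2.29 CPM (-0.81, unadjusted p = 0.0157 in edgeR).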

Additional observations from a re-analysis of the deposited data

How the results depend on the processing

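The 13 alternatives were DESeq2, other size factors, library totals only, weaker and stricter filters, the likelihood ratio test, the replicate block, correcting for GC content and length (alone or with that block), and leaving out every library once. The median log2 fold change of the tested members moved by less than the spread between replicates in all of them, from -0.10 to -0.08 with 1 library left out. With 1 library left out, the members past an adjusted p of 0.05 ranged from 0 to 2, the lower members with an unadjusted p under 0.05 from 1 to 11, the higher ones from 0 to 1, the other pathway genes from 6 to 9 and the NF-kB target genes from 4 to 8. The value of 11 came without FLOX+GCI replicate 1 and the target genes were 5 without FLOX+GCI replicate 2 and 4 without FBN-ARO-KO+GCI replicate 2. The value of 1 came without FLOX+GCI replicate 2 or FBN-ARO-KO+GCI replicate 2, and the lone library is then assumed to vary like the others. The higher members, 2 as reported, were 0 with DESeq2 (6.16% of all genes), 1 with library totals only (6.63%), and 0 when correcting for GC content and length, alone or with the block (4.74%). The other pathway genes, 8 as reported, were 4 with the correction (8.51% of those tested, against 9.96% of all genes) and 2 with the correction and the block (4.26% against 10.4%). Of 78 medians of the 6 roles over the alternatives, 13 moved by more than the spread between replicates. The receptor median, leaving out 1 library, ran from -0.40 to -0.09 and the cytokine median from -1.27 to -0.03. The -1.27 came without FLOX+GCI replicate 1, where Tnf, at -4.81, joined the tested cytokines through the filter. That median is therefore not of the same genes as the reported one. Il1a, Il1b and Il18 had log2 fold changes of -0.76, -1.77 and 0.13 in that fit. Without FBN-ARO-KO+GCI replicate 1 the cytokine median, at -0.48, also included Tnf. With DESeq2 and with the weaker filter the medians, at -0.81 and -0.79, included Tnf, Il6 and Il1rn. Rela reversed to 0.0597 with the correction and 0.0593 with the correction and the block, Tnfaip3 ranged from -0.31 to 0.20 and Nlrp3 from -0.12 to 0.71 with 1 library left out, reversing without FLOX+GCI replicate 1 and replicate 2, respectively. Causes were not tested.

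Libraries of both groups carry the numbers 1 and 2, but nothing says that same-numbered libraries were handled together. Their deviations from the group means correlated at 0.129 across genes. With the replicate block, 0 members passed an adjusted p of 0.05 (1.27% of all genes did), 3 of 6 endothelial markers and, of the members, 7 lower (8.97% of all genes) and 2 higher (8.5%) had an unadjusted p under 0.05, and the adjusted p was 0.0676 for Tnfrsf1a and 0.0795 for Il1r1. The block called 184 genes in all and DESeq2 292 of 5728, against 2 as reported. Tnf, Il6 and Il1rn had too few counts to pass the filter with all 4 libraries, and nearly all counts of Tnf came from FLOX+GCI replicate 2. Tnf was tested without FLOX+GCI replicate 1 only because of that library, so its place among the lower members of that fit was set by the filter. The same holds for its value of -2.89 without FBN-ARO-KO+GCI replicate 1.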
